A study of Mus musculus with 18 samples.

Results

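The pylorus of C57Bl/6J mouse embryos was compared between E14.5 and E16.5, embryonic days counted from the vaginal plug. The comparison rests on 6 of the 18 arrays of the series, those titled pylorus, with 3 at each age. The other arrays hold stomach tissue next to the pylorus and duodenum at the same ages and serve below as neighbours. No allele, transgene or treatment is named for any group, so the groups differ by region and age. Tissue came from 174 embryos at the younger age and 95 at the older one, and the pieces of each region and age were divided at random among 3 pools. Each array therefore reads the mean of many embryos, and p-values here weigh differences against the spread between pools, which is not the spread between embryos. Values are log2 probe set signals after RMA, a method that brings Affymetrix arrays to a common scale. Differences are E16.5 minus E14.5 on the log2 scale with their standard error (SE), and a gene is called when the p that limma gives it, adjusted over all 18193 genes, is below 0.05.

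The pylorus is the border between the stomach and the duodenum. Its epithelium joins a gastric side to an intestinal side, and its mesenchyme forms the ring of smooth muscle that becomes the pyloric sphincter. Nkx2-5, Gata3, Six2 and Sox9 act in the sphincter mesenchyme, Barx1 acts in the mesenchyme of the stomach, Sox2 marks foregut epithelium, and Cdx2 sets intestinal identity. Hedgehog ligands made by the epithelium signal to this mesenchyme through Ptch1 and the Gli factors, and the epithelium matures into absorptive, mucous and hormone-producing cells late in gestation.

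The tissue carried the marks of a pylorus at both ages. Nkx2-5 lay between 9.31 and 10.19 in the E14.5 pyloric pools, while no stomach or duodenal pool of that age exceeded 7.43. At E16.5 it lay between 8.40 and 8.75 in the pylorus and reached no more than 7.36 in the neighbours. Gata3 was likewise above both neighbours in every pool of either age, with its lowest pyloric value of E16.5 at 6.37 and the highest neighbouring value of that age at 5.97. Barx1, Sox2, Sox9, Cdx2 and Gast were all present, so markers of both sides of the border were in the same tissue. Sox9 did not set the pylorus apart, at 9.52 ± 0.40 (SD, n = 3) in pylorus, 9.55 ± 0.07 (n = 3) in stomach and 9.69 ± 0.11 (n = 2) in duodenum at E14.5.

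One pool stood apart from its group. Over probe sets above log2 8, replicate 1 of the E14.5 pylorus differed from replicates 2 and 3 with an SD of 0.413 and 0.408, against 0.155 between those 2 and 0.249 to 0.328 between pools of the E16.5 pylorus. Its mean level over the 23 genes of lipid absorption was 10.17, against 8.18 and 8.84 in the other E14.5 pools. Its mean over 28 gastric epithelial genes was 7.53, against 8.28 and 8.09, and over 15 endothelial genes 8.43, against 7.81 and 7.96. Over 22 mesenchymal regulators it was 9.28, against 9.75 and 9.72. It thus read higher for absorptive and endothelial genes and lower for gastric, mesenchymal and erythroid genes than its group, and the main results are given with and without it. Median signals of the pyloric arrays lay between 6.81 and 6.92. Replicates 1 and 2 of the E14.5 duodenum differed by an SD of 0.078, less than any other pair of a group, and were counted as 1 sample, which leaves n = 2 in that group.

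**Figure D1:**
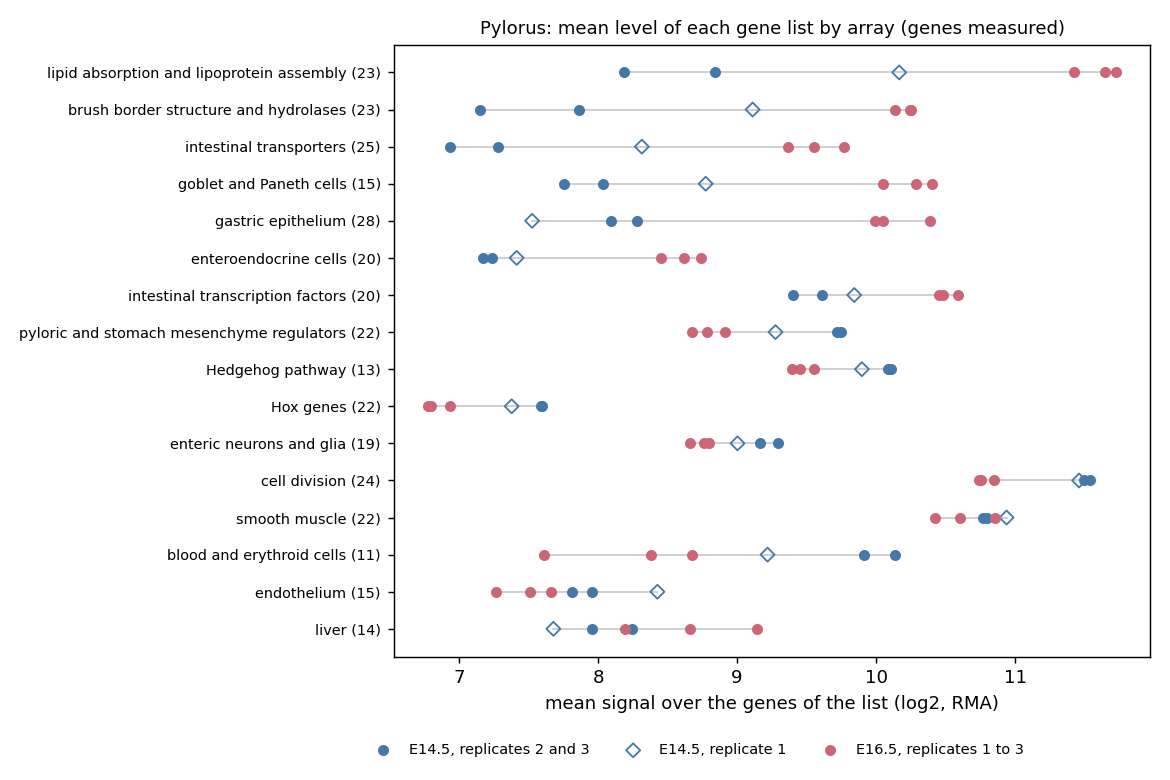
Mean log2 signal over the genes of each list in each pyloric pool, with the number of genes measured in parentheses. E14.5 replicate 1 (open diamonds) lies nearer the E16.5 pools (red) than replicates 2 and 3 (blue) do for absorptive lists, and farther from them for gastric epithelium.

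The apolipoprotein and cholesterol uptake genes that rose furthest with age are shown first by their promoters, since members of the lipid list rose together. Each sequence runs 5′ to 3′ over 300 bases, 250 before and 50 from the RefSeq start of the gene in GRCm38.p6. The 3 are the lipid genes with the largest called rises among those with an entry in the promoter table: Apoa4 at chr9:46240594-46240893 (plus strand), Apoc2 at chr7:19677892-19678191 (minus strand) and Npc1l1 at chr11:6230196-6230495 (minus strand). Capitals mark the letters CAAAGT, which belong to the HNF4 motif, and GTTAAT, an HNF1 half-site, on either strand.
Apoa4: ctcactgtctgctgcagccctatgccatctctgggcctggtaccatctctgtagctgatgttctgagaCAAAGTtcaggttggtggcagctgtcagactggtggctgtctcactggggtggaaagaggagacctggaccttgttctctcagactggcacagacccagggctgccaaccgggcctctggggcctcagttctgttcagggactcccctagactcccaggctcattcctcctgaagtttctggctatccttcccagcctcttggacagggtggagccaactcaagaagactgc
Apoc2: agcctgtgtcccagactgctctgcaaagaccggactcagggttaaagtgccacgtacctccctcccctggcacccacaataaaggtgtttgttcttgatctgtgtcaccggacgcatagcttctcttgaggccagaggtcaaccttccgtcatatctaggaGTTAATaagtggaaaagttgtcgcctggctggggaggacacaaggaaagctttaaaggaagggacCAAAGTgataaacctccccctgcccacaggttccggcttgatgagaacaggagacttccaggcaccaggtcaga
Npc1l1: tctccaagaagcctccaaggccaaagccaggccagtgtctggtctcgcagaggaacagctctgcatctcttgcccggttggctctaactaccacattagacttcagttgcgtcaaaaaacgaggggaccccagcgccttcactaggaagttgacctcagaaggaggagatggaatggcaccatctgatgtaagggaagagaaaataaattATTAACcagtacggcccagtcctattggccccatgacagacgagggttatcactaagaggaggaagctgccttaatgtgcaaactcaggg
In these windows CAAAGT begins 182 bases before the start of Apoa4 and 24 before that of Apoc2. GTTAAT begins 89 bases before the start of Apoc2, and its reverse complement begins 40 before that of Npc1l1. Of 14368 measured genes with a promoter in the table, 12.7% held CAAAGT on either strand and 5.03% held GTTAAT, against 7 and 3 of the 15 lipid genes that rose and have an entry. TTTATG, letters of the CDX2 motif, was in 8.12% of all promoters and in 2 of these 15. The CArG box of smooth muscle genes was in 1.37% of all promoters and in 2 of the 18 smooth muscle promoters with an entry. A match describes letters and is not evidence of a bound site.

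With age, 3866 genes rose in the pylorus and 3446 fell, which is 21.2% and 18.9% of the genes tested, or 40.2% together. A 2-fold or larger rise was called for 1021 genes (5.61%) and a 2-fold or larger fall for 404 (2.22%), so large changes were more often rises. For 6639 called genes (36.5%) the pools of the ages did not overlap. The median difference of all genes was 0.07. Without replicate 1 of E14.5 there were 4125 rises (22.7%) and 4177 falls (23%), together 45.6%. Of the genes called with all pools, 6694 kept their call and direction, which is 91.5% of them and 36.8% of the genes tested. Rises made up 52.9% of calls as deposited and 65.8% when arrays were centred on their medians, so the split between rises and falls depends on the scaling. In bulk tissue, more cells of a type and more of a message per cell cannot be told apart, which holds for every list below.

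The largest rises exceeded 5 log2 units. Reg1, a secreted lectin-like protein, read 8.28, 5.21 and 5.99 in the E14.5 pools and 12.95, 13.17 and 12.58 in the E16.5 pools. Lct, the lactase of the brush border, read 10.05, 5.46 and 8.0 and then 13.58, 13.48 and 13.42. In both genes every E16.5 pool lay above every E14.5 pool, and replicate 1 was the highest of E14.5. The differences were 6.41 ± 0.73 for Reg1 and 5.66 ± 0.97 for Lct (limma adjusted p 1.8e-05 and 0.00042), and 7.30 and 6.76 without replicate 1.

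Others among the largest rises were at a steady low level in all 3 pools of E14.5. Sult1c2, a sulfotransferase, read 4.84, 4.84 and 5.01 and then 10.42, 10.71 and 10.36, a rise of 5.60 ± 0.32 (limma adjusted p 3.8e-08). Leap2, a liver and gut peptide, read 5.52, 5.50 and 5.16 and then 10.62, 10.88 and 10.31. Fbp1, an enzyme of glucose synthesis, read 6.06, 5.95 and 6.02 and then 11.32, 11.69 and 10.63. In these genes replicate 1 lay among or close to the other E14.5 pools, unlike in Reg1 and Lct. Smcp, named for its place in the sperm mitochondrial capsule, rose by 5.47 ± 0.29, the chloride channel regulator Clca4b by 5.38 ± 0.42, the pepsinogen Pga5 by 5.34 ± 0.48, the goblet cell gene Clca1 by 5.23 ± 0.72 and the metalloprotease Mep1b by 4.96 ± 0.51. Averaging all probe sets of the gene gave a smaller rise of Clca1, at 2.99.

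**Figure D2:**
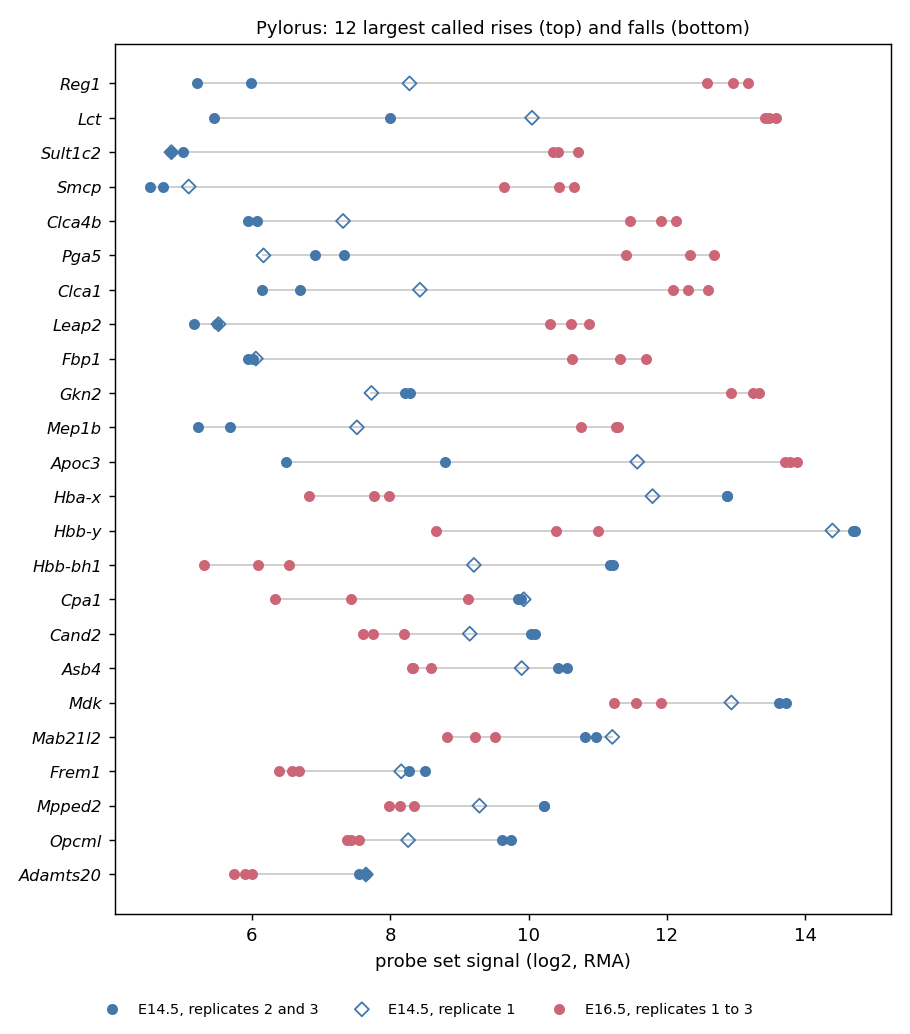
Log2 signal of the 12 largest called rises and the 12 largest called falls in each pyloric pool, limited to genes whose pools of E14.5 (blue, with replicate 1 as an open diamond) and E16.5 (red) do not overlap. Reg1 rose by 6.41 and Hba-x fell by 4.98 on the log2 scale, while the falls outside the globin genes were no larger than 2.25.

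Genes of fat absorption rose as a group. Of 23 measured, 20 rose, none fell and the median was 2.86, or 3.31 with 21 rises without replicate 1 of E14.5. The median of all genes tested, 0.07, is the value to set list medians against. List counts are to be set against the 21.2% of all genes that rose and the 18.9% that fell. Apoa4, an apolipoprotein of chylomicrons, read 12, 7.31 and 9.90 at E14.5 and 14.54, 14.56 and 14.55 at E16.5. The E14.5 pools spanned over 4 log2 units while those of E16.5 lay together at the top. It rose by 4.81 ± 0.96 (limma adjusted p 0.0013), or 5.95 without replicate 1. Its neighbour on chromosome 9, Apoc3, an inhibitor of lipoprotein lipase, read 11.57, 6.49 and 8.80 and then 13.88, 13.78 and 13.70, with the same order of the E14.5 pools. Apoa1, next to Apoc3, rose by 2.48 ± 0.54.

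The other steps of fat absorption moved the same way. Apoc2, the activator of lipoprotein lipase, read 9.99, 7.58 and 8.07 and then 12.97, 12.80 and 12.45, and rose by 4.19 ± 0.54. Npc1l1, which takes up cholesterol, read 8.62, 5.69 and 6.29 and then 10.75, 10.93 and 11.05, a rise of 4.04 ± 0.58. In both, replicate 1 was the highest E14.5 pool and still lay below all E16.5 pools. Creb3l3, a membrane-bound transcription factor of lipid metabolism, rose by 3.27 ± 0.35, the fatty acid binding protein Fabp2 by 3.23 ± 0.68, and Mttp, which loads lipid onto apolipoprotein B, by 3.22 ± 0.84. Mogat2 and Dgat2, which rebuild triglyceride, rose by 2.86 ± 0.33 and 2.96 ± 0.27. Not called were Abcg8 (0.71 ± 0.31), Scarb1 (0.27 ± 0.14, called without replicate 1) and Fabp6, the bile acid binding protein of the ileum (0.13 ± 0.10).

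Brush border genes rose in 17 of 23 cases, with none falling and a median of 1.94 that became 2.67, with 19 rises, without replicate 1. Alpi, the intestinal alkaline phosphatase, read 11.30, 7.23 and 8.86 and then 13.77, 13.78 and 13.61. Cubn, the receptor for vitamin B12 with its intrinsic factor, read 9.34, 5.60 and 7.20 and then 11.14, 11.24 and 10.91. Both showed the order of pools seen in Apoa4, with replicate 1 highest and replicate 2 lowest at E14.5. Alpi rose by 4.59 ± 0.82 and Cubn by 3.72 ± 0.71 (limma adjusted p 0.00058 and 0.00094). Among microvillar proteins the protocadherin Cdhr2 rose by 3.37 ± 0.53, Cdhr5 by 3.21 ± 0.47, Myo1a by 1.94 ± 0.20 and Vil1 by 1.72 ± 0.30. Treh, Plb1 and Tmprss15, 3 further enzymes, were not called, at 0.28 ± 0.16, 0.30 ± 0.20 and 0.15 ± 0.21.

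Of 25 transporters, 21 rose and none fell, with a median of 2.0, or 2.47 and 22 rises without replicate 1. Slc2a2, a glucose transporter, read 7.04, 5.71 and 6.05 and then 10.88, 11.21 and 10.49, a rise of 4.59 ± 0.41 (limma adjusted p 2.2e-06). Slc15a1, the peptide transporter, read 4.47, 4.19 and 4.05 and then 7.01, 8.08 and 7.36, a rise of 3.25 ± 0.29. Neither had overlapping ages, and only in Slc2a2 did replicate 1 stand clear of its group. Slc26a3, a chloride exchanger, rose by 4.12 ± 0.77, the amino acid transport subunit Slc3a1 by 4.09 ± 0.48, the sodium-glucose transporter Slc5a1 by 3.01 ± 0.46 and the iron transporter Slc11a2 by 3.23 ± 0.25. The mean of all probe sets gave 2.02 for Slc11a2. The fructose transporter Slc2a5 rose by 0.88 ± 0.15, and the ileal bile acid transporter Slc10a2 stayed uncalled at 0.12 ± 0.09.

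Regulators of the intestinal epithelium rose by less than the genes of the absorptive surface. Of 20 measured, 15 rose and none fell, with a median of 0.86. Cdx2 read 10.17, 9.47 and 9.81 and then 10.86, 10.79 and 10.54, a rise of 0.91 ± 0.24 (limma adjusted p 0.0082). Its partner Cdx1 read 8.54, 5.54 and 6.07 and then 9.18, 9.22 and 8.49, so replicate 1 overlapped the E16.5 pools. Cdx1 rose by 2.25 ± 0.56, or 3.16 without replicate 1. Hnf4a, a nuclear receptor of intestinal and liver genes, read 11.75, 11.01 and 11.17 and then 12.09, 12.10 and 12.11, a rise of 0.79 ± 0.16. The bile acid receptor Nr1h4 rose by 2.30 ± 0.34, the xenobiotic receptor Nr1i2 by 1.57 ± 0.20, Hnf4g by 1.48 ± 0.34 and the goblet and surface cell factor Klf4 by 1.39 ± 0.26. Without replicate 1 the list gave 16 rises and 2 falls, the falls being Foxa2 (0.05 ± 0.29 with it, -0.45 without) and Tcf7l2 (-0.35 ± 0.19 with it, -0.51 without).

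Products of the gastric epithelium rose in the same tissue. Of 28 measured genes, 23 rose and none fell, with a median of 2.06, or 1.89 with 23 rises without replicate 1. The gastrokines, secreted proteins of gastric surface cells, lie side by side on chromosome 6. Gkn2 read 7.73, 8.21 and 8.29 and then 13.24, 12.93 and 13.33, and rose by 5.09 ± 0.43 (limma adjusted p 1.6e-06). Gkn3 read 7.43, 7.86 and 7.47 and then 12.41, 12.18 and 12.53, and rose by 4.79 ± 0.27. Gkn1 rose by 4.48 ± 0.44, and in all 3 the E14.5 pools lay together well below those of E16.5.

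The mucous and chief cell genes followed. Tff2, a trefoil peptide of mucous neck and antral gland cells, read 8.16, 9.46 and 8.80 and then 13.23, 13.39 and 13.27, a rise of 4.49 ± 0.45. Bpifb1, a secreted lipid-binding protein, read 6.50, 9.31 and 8.74 and then 12.67, 12.31 and 13.33, a rise of 4.59 ± 0.70. In Bpifb1, replicate 1 was the lowest pool of E14.5, the reverse of its place in the absorptive genes. The fetal milk-clotting enzyme Cym rose by 3.22 ± 0.43, Tff1 by 2.27 ± 0.33 and the pepsinogen Pgc by 1.85 ± 0.43, or 1.14 without E16.5 replicate 3. Gast, the hormone of antral G cells, read 6.97, 8.31 and 8.0 and then 9.57, 9.57 and 9.58, a rise of 1.81 ± 0.28. The acid pump genes Atp4a and Atp4b rose by 0.79 ± 0.22 and 0.98 ± 0.16, and Muc5ac, Aqp5 and Onecut1 were not called (0.26 ± 0.28, 0.05 ± 0.11 and -0.15 ± 0.13).

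Sox2, the foregut factor, read 8.66, 10.77 and 10.65 at E14.5 and 9.91, 9.89 and 10.76 at E16.5, and the ages overlapped. The difference was 0.16 ± 0.40 with all pools and -0.52 without replicate 1, called in neither case (limma adjusted p 0.76 and 0.057). Sox21, a related factor of the same epithelium, rose by 1.12 ± 0.22, or 0.83 without replicate 1.

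Mucus and defence genes of goblet and Paneth cells rose in 12 of 15 cases, with none falling and a median of 2.11, or 2.27 with 12 rises without replicate 1. Muc2, the gel-forming intestinal mucin, read 6.86, 5.70 and 5.83 and then 9.73, 9.74 and 8.78, a rise of 3.29 ± 0.43 (limma adjusted p 5.2e-05). Spink4, a secreted goblet cell peptide, read 9.84, 6.13 and 7.56 and then 12.34, 12.29 and 11.53, a rise of 4.21 ± 0.74. The trefoil Tff3 rose by 2.80 ± 0.49 and Mptx1 by 2.99 ± 0.43. Atoh1, the factor that commits cells to the secretory lineage, rose by 1.27 ± 0.31. The lysozyme genes Lyz1 and Lyz2 were not called, at 0.26 ± 0.27 and 0.07 ± 0.25.

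Genes of hormone-producing cells, both hormones and other genes of these cells, rose in 14 of 20 cases, with a median of 1.13. Gast, Ghrl and Sst are also counted in the gastric list, and Isl1 in that of mesenchymal regulators. Gip read 6.16, 5.65 and 5.90 and then 9.84, 10.18 and 9.52, a rise of 3.94 ± 0.23 (limma adjusted p 4.1e-08). Sst, which encodes somatostatin, read 6.21, 5.92 and 5.96 and then 9.76, 10.02 and 9.22, a rise of 3.64 ± 0.27. Cck rose by 3.06 ± 0.35, Ghrl by 2.61 ± 0.45, the serotonin enzyme Tph1 by 2.48 ± 0.29 and the granule protein Chga by 1.11 ± 0.11. Neurog3, the factor that starts the lineage, was not called (0.06 ± 0.27). With all pools none of the 20 fell, and without replicate 1 there were 15 rises and 3 falls, Isl1 (-1.31), Insm1 (-0.71) and Gcg (-0.63). These stood at -0.70 ± 0.33, -0.47 ± 0.19 and -0.15 ± 0.32 with it.

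General epithelial genes rose by less than the products of mature cells. Of 14, 8 rose and none fell, with a median of 0.45. Cdh1, the epithelial cadherin, read 12.45, 12.50 and 12.63 and then 12.93, 13.12 and 13.37, a rise of 0.61 ± 0.13 (limma adjusted p 0.0016). Krt19 rose by 1.01 ± 0.11 and Krt8 by 0.67 ± 0.11, while Epcam stayed uncalled at 0.31 ± 0.22.

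Enzymes of drug and retinoid metabolism rose in 15 of 24 cases and fell in 3, with a median of 0.75. Ugt2b5, a glucuronosyltransferase, rose by 4.46 ± 0.78, the retinol binding protein Rbp2 by 4.39 ± 0.73, and the cytochromes Cyp2c65 and Cyp3a13 by 3.36 ± 0.34 and 2.63 ± 0.29. The falls were among genes that handle retinoic acid. Crabp2, which carries retinoic acid, fell by 1.37 on the log2 scale (SE 0.33), and Aldh1a2, a mesenchymal enzyme that makes it, by 1.16 (SE 0.16). Cyp26b1, which degrades it, was at -0.34 ± 0.11, and its call was lost without replicate 1 and under both other scalings. Their relatives in the list did not all go down: Aldh1a1 stood at 0.66, Aldh1a3 at 0.52, Cyp26a1 at 0.21 and Crabp1 at -0.63. Genes of cholesterol synthesis and its control rose in 7 of 17 cases and fell in none, with a median of 0.34. The largest differences were those of Insig1, a regulator of the pathway (1.18 ± 0.31), and the enzyme Ebp (0.98 ± 0.17). Hmgcs1, Sqle and Srebf2 stood at 0.03, 0.12 and -0.04.

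The regulators of the sphincter and of stomach mesenchyme fell. Of 22 measured, 14 fell and none rose, with a median of -0.75, or 16 falls and -0.85 without replicate 1. Nkx2-5 read 9.31, 10.19 and 10.16 at E14.5 and 8.75, 8.49 and 8.40 at E16.5, and fell by 1.34 (SE 0.18, limma adjusted p 6.3e-05). Gata3 read 7.48, 8.97 and 9.16 and then 7.09, 6.97 and 6.37, and fell by 1.73 (SE 0.35). For both, the ages did not overlap, and replicate 1 was the lowest pool of E14.5. Without it the falls were larger, at -1.63 for Nkx2-5 and -2.25 for Gata3.

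Other regulators of this mesenchyme fell too. Barx1 read 11.06, 12.08 and 12.03 and then 10.76, 10.52 and 10.30, and fell by 1.20 (SE 0.23). Six2 read 9.39, 10.30 and 10.17 and then 8.98, 8.86 and 8.76, and fell by 1.09 (SE 0.21). Tcf21, a factor of visceral mesenchyme, and Osr1 fell by 1.30 (SE 0.19) and 1.35 (SE 0.34), and Foxf1, a Hedgehog-responsive factor of gut mesenchyme, by 1.13 (SE 0.20). Sox9 did not follow: it read 9.07, 9.65 and 9.83 and then 9.54, 9.23 and 9.98, with overlapping ages and a difference of 0.07 ± 0.21. Nkx2-3, Pitx1 and Isl1 were not called with all pools (-0.74 ± 0.29, -0.73 ± 0.31 and -0.70 ± 0.33), and only Isl1 of these was called without replicate 1.

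**Figure D3:**
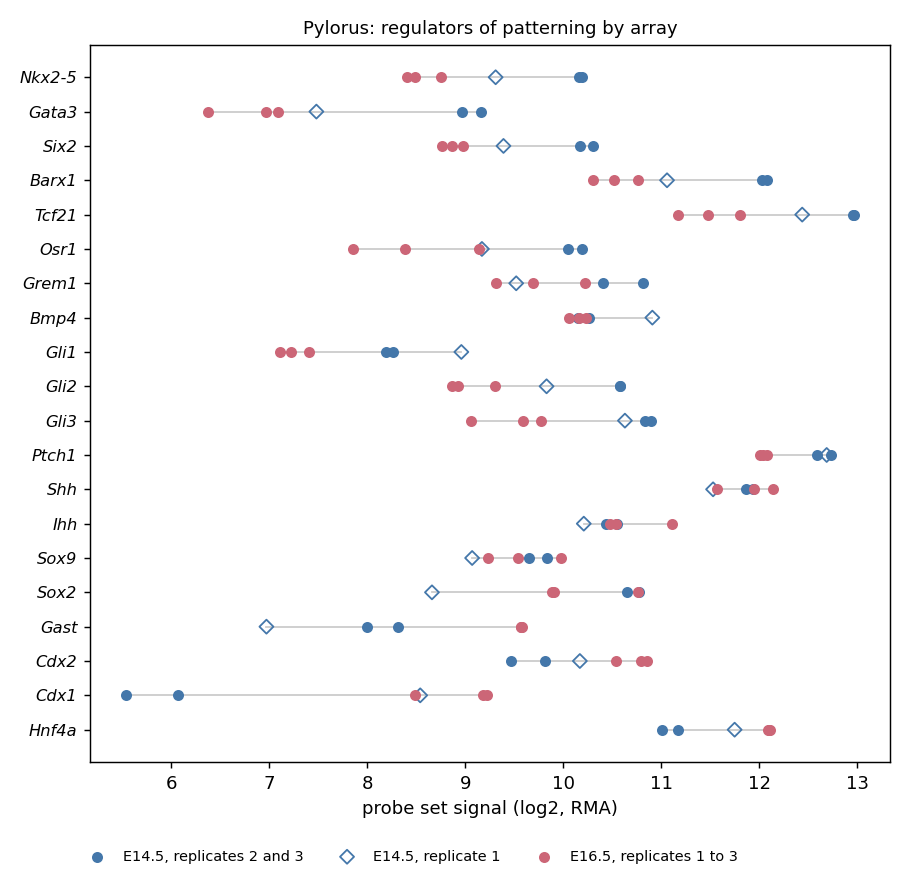
Log2 signal of 20 patterning and signalling genes in each pyloric pool, with E14.5 replicate 1 as an open diamond, E14.5 replicates 2 and 3 in blue and E16.5 in red. Nkx2-5, Gata3, Six2, Barx1 and the Gli genes lay lower at E16.5 without overlap, Cdx2 and Hnf4a lay higher, and Shh, Sox9 and Sox2 overlapped.

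Genes that receive Hedgehog signals fell, and no Hedgehog ligand was called. Shh, the main ligand of this epithelium, read 11.53, 11.94 and 11.87 and then 11.57, 11.95 and 12.14, a difference of 0.11 ± 0.19. Ihh stood at 0.31 ± 0.18 and Dhh at 0.19 ± 0.10. Of the 13 genes of the pathway, 8 fell and none rose, with a median of -0.62, or 9 falls without replicate 1. Gli1, a factor and target of the pathway, read 8.96, 8.19 and 8.26 and then 7.40, 7.22 and 7.11, and fell by 1.23 (SE 0.26, limma adjusted p 0.0022). Ptch1, the receptor and a target, read 12.69, 12.59 and 12.73 and then 12.01, 12.04 and 12.08, and fell by 0.63 (SE 0.17). Gli3 fell by 1.32 (SE 0.18), Gli2 by 1.30 (SE 0.23), the transducer Smo by 0.83 (SE 0.17) and the coreceptor Gas1 by 0.72 (SE 0.17). The inhibitor Hhip was not called, at -0.41 ± 0.25.

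In the Wnt pathway 11 of 30 genes fell and 1 rose, with a median of -0.18, or 10 falls and 2 rises without replicate 1. Over all genes 40.2% were called, 21.2% as rises and 18.9% as falls. The total share called here is near that of all genes, but with more falls and fewer rises. Rspo3, a secreted enhancer of Wnt signals, read 9.22, 8.97 and 9.15 and then 7.68, 7.44 and 7.39, and fell by 1.61 (SE 0.19, limma adjusted p 2.4e-05). The mean of all its probe sets gave -0.87. The receptor Fzd2 fell by 1.47 (SE 0.16), and the secreted inhibitors Sfrp1 and Sfrp5 by 1.40 (SE 0.12) and 1.21 (SE 0.16). Wnt4 was the ligand that rose, from 7.81, 7.82 and 7.78 to 9.22, 9.18 and 9.31, a difference of 1.43 ± 0.19. The target Axin2 and the stem cell receptor Lgr5 were not called, at -0.54 ± 0.23 and 0.63 ± 0.34, and Lgr5 was called without replicate 1, at 1.05.

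Among 22 BMP pathway genes 3 rose and 5 fell, a share near that of all genes, of which 40.2% were called. Bmp2 read 9.36, 9.27 and 9.44 and then 10.87, 10.87 and 11.61, and rose by 1.76 ± 0.24 (limma adjusted p 8.1e-05). Bmp4, the mesenchymal ligand, read 10.91, 10.15 and 10.26 and then 10.23, 10.16 and 10.06, with overlapping ages and a difference of -0.29 ± 0.26. The secreted inhibitor Grem1 read 9.52, 10.41 and 10.81 and then 10.22, 9.69 and 9.31. Its difference was -0.51 ± 0.32, not called with all pools, and -0.87 without replicate 1, called (limma adjusted p 0.028). Falls without replicate 1 numbered 9. Notch genes fell in 7 of 19 cases and rose in 2, or 9 and 3 without replicate 1. The total is also not far from the share of all genes, but most of it were falls. Notch3 stood at -1.12 ± 0.26 and the target Hey1 at -0.92 ± 0.17. The feedback gene Nrarp rose by 0.84 ± 0.16, and Hes1 was not called at 0.14 ± 0.14.

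Most genes of smooth muscle were not called. Acta2, smooth muscle actin, read 14.17, 14.20 and 14.18 and then 14.23, 13.96 and 13.89, a difference of -0.16 ± 0.12. Myh11, smooth muscle myosin, read 12.05, 11.60 and 11.54 and then 11.68, 11.45 and 10.97, a difference of -0.36 ± 0.28. Both overlapped between ages, and neither passed the test, which does not show that they were equal. Of 22 genes, 1 rose (Synm, 0.78 ± 0.15) and 4 fell, with a median of -0.15. Cald1 and Tpm1 were not called, at -0.25 and -0.11. Their other probe sets ranged from -1.20 to 0.21 and from -0.84 to -0.13. Itga8, an integrin of mesenchymal cells, fell by 1.23 (SE 0.23) and the adhesion plaque gene Pgm5 by 0.99 (SE 0.22). Synpo2 was at -0.97 ± 0.19, and at -0.27 as the mean of its probe sets. Myocd, the coactivator that drives the contractile programme, was at -0.70 ± 0.25, and its call was lost when any single pool other than E14.5 replicate 1 was left out, and with the mean of its probe sets (-0.41).

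Interstitial cells of Cajal, which pace the muscle, were read through 8 genes, not all particular to them. Of these 8 genes 3 fell and none rose, where 40.2% of all genes were called and 18.9% fell. Kit, the receptor of interstitial cells of Cajal, read 10.30, 11.44 and 11.13 and then 9.88, 9.92 and 9.99, and fell by 1.03 (SE 0.24, limma adjusted p 0.0042). Pdgfra fell by 1.29 (SE 0.17) and Gucy1a1 by 1.25 (SE 0.17), while the channel Ano1 was not called at 0.17 ± 0.28. Matrix and fibroblast genes fell in 7 of 23 cases and none rose, beside the same shares of all genes. Among the falls were Fbn2 (-0.92 ± 0.23), Col14a1 (-0.87 ± 0.20) and Fn1 (-0.81 ± 0.17), while Col3a1 stayed uncalled at -0.19 ± 0.10.

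Of 19 genes of enteric neurons and glia, 12 fell and 2 rose, with a median of -0.63. Phox2a, a factor of autonomic neurons, read 8.72, 9.82 and 9.56 and then 8.50, 7.93 and 8.05, and fell by 1.21 (SE 0.22, limma adjusted p 0.0007). Tubb3, the neuronal tubulin, fell by 1.17 (SE 0.15) and Uchl1 by 1.12 (SE 0.22). Both rises were in genes found in glia. S100b rose from 6.36, 5.87 and 6.13 to 7.44, 7.25 and 7.18, a difference of 1.17 ± 0.16. The receptor Erbb3 rose by 0.57 ± 0.12. The glial genes Fabp7, Sox10 and Cdh19 of the same list went the other way, at -0.71, -0.71 and -0.30. Genes of neuronal subtypes were not called, with Vip at 0.24 ± 0.16 and Nos1 at 0.18 ± 0.13.

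Cell division genes fell in 23 of 24 cases, with a median of -0.71, or in 21 without replicate 1. Mki67 read 12.99, 13.05 and 13.24 and then 12.30, 12.35 and 12.67, and fell by 0.65 (SE 0.17, limma adjusted p 0.0073). The checkpoint kinase Bub1 fell by 0.95 (SE 0.11) and the mitotic kinesin Kif20a by 0.95 (SE 0.17). The exception was Cdc20, at -0.42 ± 0.19, whose other probe sets gave -0.71 and -0.30. Among 17 fetal growth and timing genes 6 fell and 1 rose, a total again near the 40.2% of all genes, but mostly falls. The imprinted genes Peg3 and Mest fell by 1.19 (SE 0.16) and 1.15 (SE 0.14). Hmga2, a chromatin protein of fetal growth, read 12.31, 12.90 and 13.03 and then 11.70, 11.64 and 12.04, and fell by 0.95 (SE 0.21). Lin28b lay at the foot of the scale in every pool, between 3.71 and 4.08, and was not called (-0.08 ± 0.09).

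Hox genes, which mark position along the body axis, fell in 13 of 22 cases and rose in 1, with a median of -1.0. Hoxa5 read 10.55, 10.70 and 10.72 and then 9.20, 8.93 and 9.15, and fell by 1.56 (SE 0.17, limma adjusted p 1.5e-05). Hoxb6 fell by 1.40 (SE 0.21), Hoxd3 by 1.24 (SE 0.19) and Hoxc4 by 1.20 (SE 0.16). The rise was that of Hoxb9, at a low signal, from a mean of 5.21 to 5.56 (0.35 ± 0.10). Hoxa7 and Hoxa9 were not called, at 0.07 ± 0.13 and 0.25 ± 0.12. Hoxb1, Hoxd1, Hoxc8 and Hoxb7 had mean signals of at most 5.21 at both ages and were not called either.

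Of the large falls outside these lists, the growth factor Mdk read 12.93, 13.72 and 13.62 and then 11.92, 11.55 and 11.24, and fell by 1.85 (SE 0.19, limma adjusted p 7.7e-06). Mab21l2, a developmental gene of gut mesenchyme, read 11.21, 10.97 and 10.81 and then 9.52, 9.23 and 8.82, and fell by 1.81 (SE 0.18). Neither had overlapping ages. Asb4, Cand2, Frem1, Mpped2, Opcml and Adamts20 fell by 1.73 to 1.91. Cpa1, a pancreatic carboxypeptidase, read 9.93, 9.85 and 9.89 and then 7.44, 9.13 and 6.34, so its fall of 2.25 (SE 0.70) varied among the E16.5 pools, and its call was lost without E14.5 replicate 3 or E16.5 replicates 1 or 3.

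**Figure D4:**
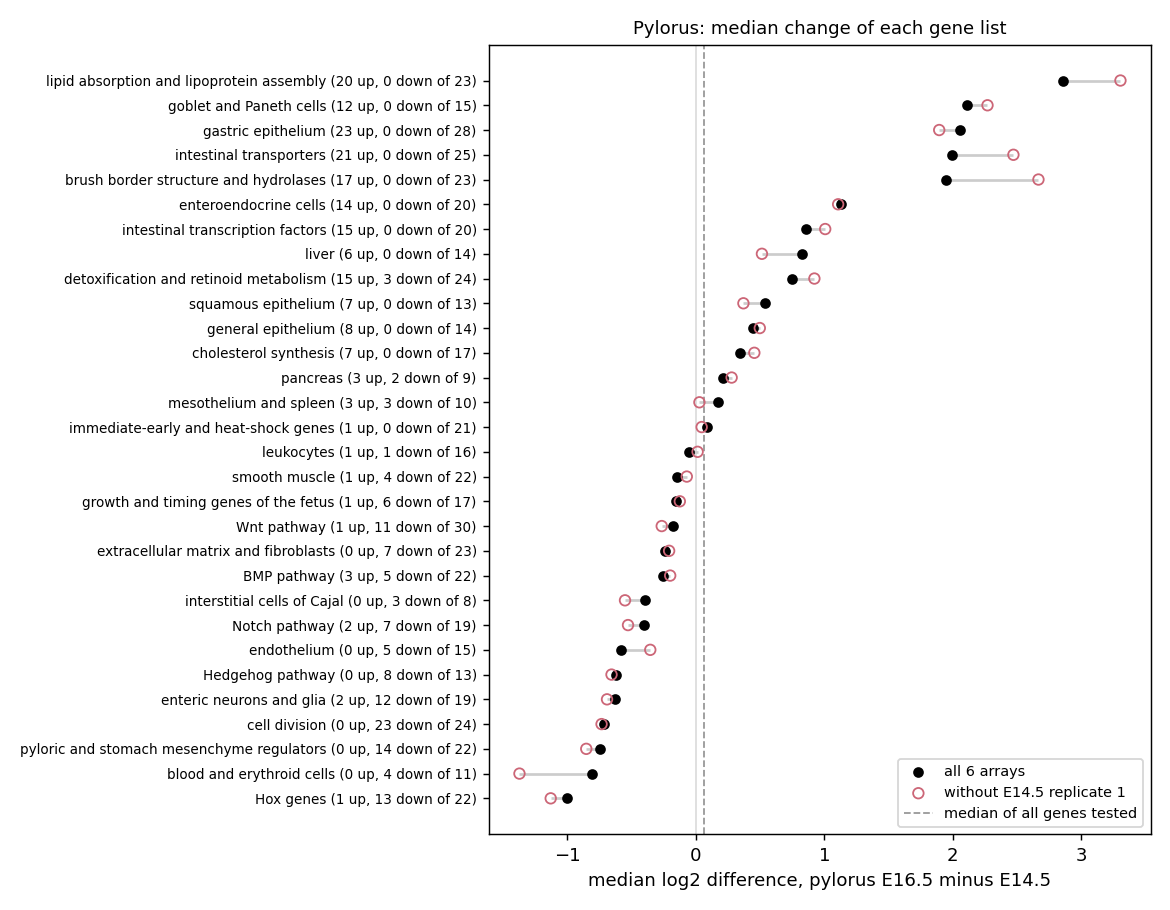
Median log2 difference of each gene list, E16.5 minus E14.5, with all 6 pools (black) and without E14.5 replicate 1 (open red), and the numbers called up and down. The dashed line is the median of all genes tested, 0.07; of the 30 lists, that of leukocytes, at -0.05, changed sign without replicate 1.

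The deepest falls of all were in embryonic globins, carried by the primitive red cells of early embryos. Hba-x read 11.79, 12.87 and 12.87 and then 7.99, 7.77 and 6.83, and fell by 4.98 (SE 0.33, limma adjusted p 1.7e-07). Hbb-bh1 read 9.21, 11.17 and 11.22 and then 6.54, 6.09 and 5.31, and fell by 4.55 (SE 0.41). Hbb-y fell by 4.58 (SE 0.69) from a level between 14.39 and 14.72. The other erythroid genes differed by less. Klf1, the erythroid transcription factor, was at -1.11 ± 0.30 and called, and lost its call without E14.5 replicate 2, without E16.5 replicate 3 and in a fit of the pyloric pools alone. Slc4a1 and Rhag, of the red cell membrane, were at -0.92 ± 0.57 and -0.81 ± 0.46 and not called, and Alas2 and Tfrc were at -0.09 ± 0.37 and 0.08 ± 0.14. Of 11 erythroid genes 4 fell, with a median of -0.81, or 5 and -1.37 without E14.5 replicate 1. Their mean level lay between 9.22 and 10.13 at E14.5 and between 7.61 and 8.67 at E16.5.

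Markers of neighbouring organs and other cell types moved as follows, and their part in the results above was not tested. Liver genes rose in 6 of 14 cases, with list means of 7.68 to 8.24 at E14.5 and 8.20 to 9.15 at E16.5. Without replicate 1 there were 4 rises and 1 fall. Alb and Afp, which define liver, were not called (0.56 ± 0.70 and 0.24 ± 0.53), while Ttr rose by 1.13 ± 0.14. Pancreatic genes rose in 3 of 9 cases and fell in 2, with Pdx1, which is also an antral and duodenal factor, rising by 0.98 ± 0.15 and Ptf1a falling by 0.73 (SE 0.17). List means for pancreas lay between 7.64 and 8.05 at E14.5 and between 7.51 and 8.26 at E16.5. Endothelial genes fell in 5 of 15 cases, led by Tie1 (-1.34 ± 0.28), where 40.2% of all genes were called and 18.9% fell. Without replicate 1 there were 2 falls. In that pool the list mean was 8.43, against 7.81 to 7.96 in its group and 7.27 to 7.66 at E16.5.

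Leukocyte genes gave 1 rise and 1 fall among 16, with a median of -0.05 as deposited that turned positive under quantile normalization, under centring and without replicate 1 (0.05, 0.03 and 0.01). Their list means lay between 8.49 and 8.53 at E14.5 and between 8.22 and 8.68 at E16.5. Mesothelial genes gave 3 rises and 3 falls among 10, with Msln rising by 1.34 ± 0.26 and list means of 8.69 to 9.51 and then 8.94 to 9.33. Squamous genes rose in 7 of 13 cases, led by Mal (4.46 ± 0.64) and Sprr1a (2.46 ± 0.25), with list means of 6.52 to 7.02 and then 7.45 to 7.73, and in 4 without replicate 1. The basal squamous markers Krt5, Krt14 and Trp63 were not called (-0.54 ± 0.48, 0.03 ± 0.49 and -0.63 ± 0.52). Immediate-early and heat-shock genes, which respond to handling, gave 1 rise among 21, Ier3 (0.92 ± 0.27), and a median of 0.09. Fos was at 0.86 ± 0.79 and read 8.02 in replicate 1 of E14.5, against 9.42 and 9.76 in its group.

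Set against the stomach, the change with age in the pylorus differed for 453 genes, 281 with a higher change in the pylorus (1.54% of those tested) and 172 with a lower one (0.945%), or 2.49% in all. Between the ages 40.9% of genes were called in the stomach itself and 61.4% in the duodenum. The count rested on single pools: it was 701 (3.85%) without E14.5 pyloric replicate 1, with 459 higher (2.52%) and 242 lower (1.33%), 248 without E14.5 pyloric replicate 2, and 299 and 209 without E16.5 pyloric replicates 1 and 2. Leaving out stomach replicates 1, 2 and 3 of E14.5 gave 274, 216 and 223, and leaving out stomach replicate 3 of E16.5 gave 252. Without stomach replicate 1 of E16.5 there were 168 higher changes, and without replicate 2 there were 285 lower ones. This comparison and the one with the duodenum share the pyloric pools. The immediate-early and heat-shock list had a median change of 1.63 in the stomach and 1.09 in the duodenum, against 0.09 in the pylorus, and the part of this in the differences between regions was not tested. Pck1, an enzyme of glucose synthesis, read 4.90, 4.37 and 4.69 and then 9.62, 9.75 and 8.94 in the pylorus. It rose there by 4.78 ± 0.27, or 2.65 as the mean of its probe sets, and stood at 0.22 in the stomach, a difference between regions of 4.57 (limma adjusted p 8.5e-06). Smcp, Leap2 and Clca4b stood at 0.62, 1.02 and 1.10 in the stomach. Reg1 stood at 1.28 there, and its difference from the pylorus lost its call without E16.5 pyloric replicate 2 or E14.5 stomach replicate 2 (limma adjusted p 0.0536 and 0.0514). These rises were not particular to the pylorus. In the duodenum Pck1, Smcp, Leap2, Clca4b and Reg1 rose by 5.82, 6.38, 7.52, 6.86 and 5.22. Among the hormones, Gip stood at 0.65 in the stomach and Cck at -0.32 (limma adjusted p for the difference from the pylorus 4.1e-05 and 0.0016), and the mucin Muc2 at 0.38 (adjusted p 0.02). The call of Muc2 was lost without pyloric replicates 2 or 3 of E14.5, pyloric replicates 1 or 2 of E16.5, or stomach replicates 2 or 3 of E14.5, with adjusted p between 0.0511 and 0.0683.

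Of the lipid list 3 genes rose more in the pylorus than in the stomach and none less, or 10 without E14.5 pyloric replicate 1, and of the transporters 6, or 13. Some genes rose more in the stomach. Atp4a, the acid pump of parietal cells, rose by 5.74 in the stomach and read 6.53, 6.22 and 6.16 and then 7.03, 7.14 and 7.12 in the pylorus. Its change in the pylorus was lower by 4.95 on the log2 scale (adjusted p 1.1e-06). The squamous keratins Krt13 and Krt4 rose by 5.93 and 4.89 in the stomach, against 0.86 ± 0.29 and 0.54 ± 0.20 in the pylorus, where both lost their call without E14.5 replicate 1 and without several other single pools. Of 13 squamous genes 7 had a lower change in the pylorus and none a higher one. The E16.5 stomach pools averaged 12.76 for Krt13 and 12.50 for Atp4a. Which parts of the stomach these pools held, and its share in the differences, was not tested. The gastric list was split, with 3 higher and 3 lower of 28.

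Nkx2-5 fell further in the pylorus than in either neighbour, where it was lower from the start. At E14.5 its mean was 9.89 in pylorus, 7.39 in stomach and 7.20 in duodenum. The means of Gata3 were 8.54, 5.78 and 5.24. How far these lower levels limit a fall in the neighbours was not tested. Nkx2-5 stood at -0.16 in the stomach and -0.12 in the duodenum over the same days, against -1.34 in the pylorus. Both differences were called (limma adjusted p 0.025 and 0.0062). The difference from the stomach lost its call without pyloric replicates 2 or 3 of E14.5, pyloric replicate 2 of E16.5, or any stomach replicate of E14.5, with adjusted p between 0.0515 and 0.0728, and that from the duodenum kept its call under every alternative run. Gata3 was at -0.32 in the stomach and -0.19 in the duodenum against -1.73. Its difference from the duodenum was called and that from the stomach was not (adjusted p 0.0496 and 0.153). Leaving out any single pool other than E14.5 pyloric replicate 1 ended the call against the duodenum, and leaving out that pool brought a call against the stomach (adjusted p 0.00321). Barx1 fell by 1.07 in the stomach and 1.5 in the duodenum, and no difference from the pylorus was called. Sfrp5 fell in the pylorus and stood at 0.16 in the stomach (adjusted p for the difference 0.0042, or 0.0838 with the mean of its probe sets).

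**Figure D5:**
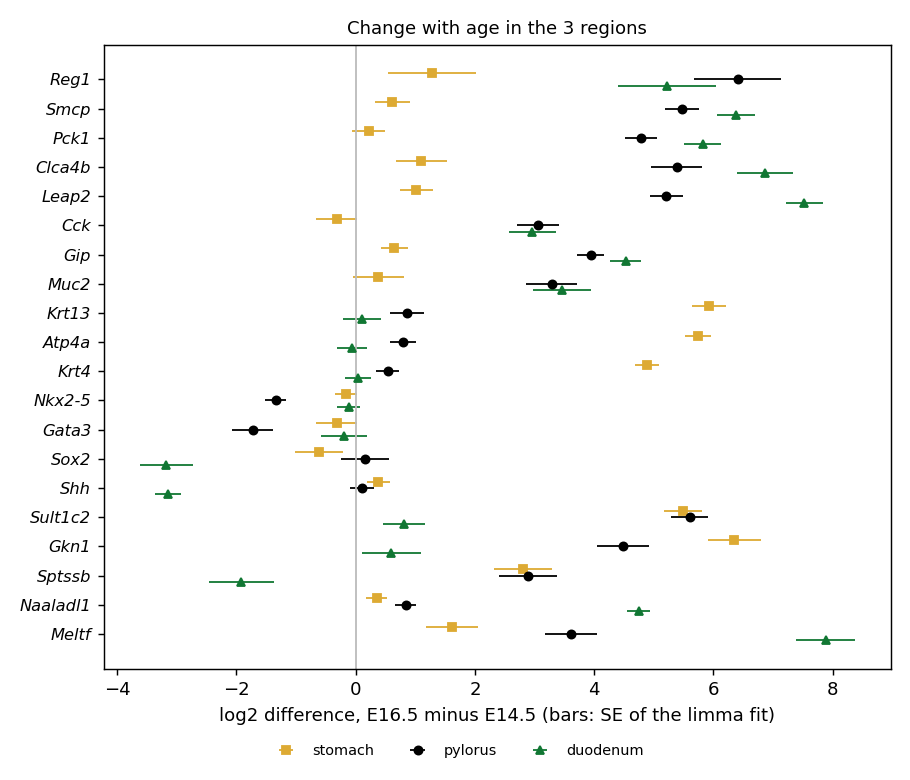
Log2 difference between E16.5 and E14.5 in stomach (squares), pylorus (circles) and duodenum (triangles), with SE bars from the limma fit. Reg1, Smcp, Pck1, Clca4b and Leap2 rose more in the pylorus than in the stomach, Krt13, Atp4a and Krt4 more in the stomach, and Shh and Sox2 stood at -3.15 and -3.18 in the duodenum.

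The duodenum changed differently from the pylorus in 3561 genes, 2286 with a higher change in the pylorus (12.6% of those tested) and 1275 with a lower one (7.01%), or 19.6% in all. Without E14.5 pyloric replicate 1 there were 2979 (16.4%), of which 1877 were higher (10.3%) and 1102 lower (6.06%). Without duodenal replicate 3 of E14.5, which leaves 1 sample in that group, the count was 1673, and without the averaged duodenal sample there were 1454 higher changes. Shh was among them: it fell by 3.15 on the log2 scale in the duodenum and stood at 0.11 in the pylorus (adjusted p for the difference 6.4e-05). Sox2 fell by 3.18 on the log2 scale in the duodenum and Sox9 by 1.26, while neither was called in the pylorus. The adjusted p of the difference between the regions was 0.0019 for Sox2 and 0.0097 for Sox9, or 0.0547 for Sox9 without duodenal replicate 3 of E14.5. Of 28 gastric genes 12 had a higher change in the pylorus and none a lower one. Sult1c2 stood at 0.81 in the duodenum, and Gkn1 and Gkn2 at 0.60 and 1.34.

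Of 25 transporters 14 had a lower change in the pylorus than in the duodenum and none a higher one. Of the 23 lipid genes 8 had a lower one, and of the 23 brush border genes 5, or 7 and 4 without E14.5 pyloric replicate 1, and none a higher one. For Apoa4, Fabp2, Mttp and Vil1 no difference was called (adjusted p 0.732, 0.831, 0.492 and 0.541), which does not show equal rises. The differences were -0.855 ± 1.44, -0.395 ± 1.01, -1.38 ± 1.26 and -0.44 ± 0.44. The median of the lipid list was -1.34, or -0.71 without E14.5 pyloric replicate 1. At E16.5 Apoa4 and Fabp2 averaged 14.55 and 14.46 in the pylorus and 15.04 and 14.99 in the duodenum. Whether signals this high left room for a further rise was not tested. Abcb11, the bile salt export pump, read 5.10, 4.76 and 4.52 and then 7.51, 7.92 and 7.59 in the pylorus and rose by 6.55 in the duodenum against 2.88 ± 0.30 in the pylorus. Naaladl1, a brush border peptidase, rose by 4.75 in the duodenum and by 0.84 ± 0.17 in the pylorus. Of cell division genes 15 of 24, and of neuronal and glial genes 13 of 19, had a higher change in the pylorus than in the duodenum, and none a lower one. At the median both lists fell in both regions, and fell less in the pylorus. The medians were -0.71 in pylorus and -1.46 in duodenum for cell division, and -0.63 and -1.73 for neurons and glia. Kit fell by 2.78 in the duodenum and Phox2a by 3.32 (adjusted p for the difference from the pylorus 0.0047 and 0.00099).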

How the data were processed

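Total RNA from pooled embryonic tissue was read on 18 Affymetrix arrays. The deposited values are log2 signals, with RMA and GCOS named in the submitters' processing notes and no versions given. Of 45101 probe sets, 34945 carry 1 gene symbol, 932 several and 9160 none, and 64 are controls. The probe set of highest mean stood for each of 18193 genes. Depth has no meaning here: the number of arrays limits precision. Differences were fitted with limma 3.58.1 in R 4.3.3 over 17 samples in 6 groups, with Benjamini-Hochberg adjustment over all genes. In simulated data of the pyloric comparison, 67, 67 and 66 genes were changed by 0.5, 1 and 2 (log2), with an even spread over pools. Of these, 44.8%, 94% and 100% were recovered, and 8.6% of calls were false. The real data hold far more called genes and a pool that stands apart, so these rates need not apply to them. The comparison, its members and the gene lists were chosen with earlier results of these data known. Named genes were the largest called changes without overlap, the largest differences from a neighbour, and members of 30 lists. Alternatives covered scaling, probe sets, dim genes, array weights, samples in the fit, a replicate block and leaving out each pool. Promoters are RefSeq entries of GRCm38.p6.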

Additional observations from a re-analysis of the deposited data

Results flagged for a closer look

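The change with age differed between the pylorus and the stomach for 453 genes by a limma test of the difference itself. The genes with the largest higher change in the pylorus were Reg1 (5.12 on the log2 scale), Smcp (4.85), Pck1 (4.57), Clca4b (4.28) and Leap2 (4.19). All of them rose in the duodenum as well, by 5.22, 6.38, 5.82, 6.86 and 7.52. Those with the largest lower change were Krtdap (-5.50), Krt13 (-5.07), Atp4a (-4.95), Rptn (-4.50) and Krt4 (-4.35), of which Krtdap, Krt13, Rptn and Krt4 are genes of squamous epithelium.

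From the duodenum the pylorus differed in 3561 genes by the same kind of test. The largest higher changes were those of Sptssb (4.81), Sult1c2 (4.79), Gkn1 (3.88), Gkn2 (3.75) and Plet1 (3.53, or 1.94 as the mean of its probe sets). The largest lower changes were those of Meltf (-4.27), Naaladl1 (-3.91), Abcc2 (-3.89), Bst1 (-3.67) and Abcb11 (-3.67). In the pylorus itself, Krtdap, Rptn and Bst1 were not called between the ages.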

How the results depend on the processing

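The counts of rises and falls in the pylorus stayed within 1.5 times under every alternative run, from 5223 calls without E14.5 replicate 3 to 10335 with array weights, and leaving out dim genes left 46.5% of calls higher. Differences from the stomach were less stable: array weights gave 1732 (1056 higher, 676 lower), and leaving out 1 pool gave 209 to 701 (133 to 459 higher, 76 to 285 lower). For differences from the duodenum, array weights gave 1973 lower changes and a fit of the compared groups alone 845, and leaving out 1 pool gave 1673 to 4386 (1135 to 2625 higher, 538 to 1761 lower). The causes were not tested. Foxa2, at 0.05 and not called, turned to -0.44 with array weights, and leaving out 1 pool gave -0.45 (without E14.5 replicate 1) to 0.32. Of 330 named genes called, 65 lost the call in at least 1 setting, 18 of them without that pool, and 41 uncalled ones gained it.

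With the replicate number as a block, the pylorus gave 3890 rises and 3583 falls, the difference from the stomach 341 higher and 248 lower, and that from the duodenum 2509 and 1358. Same-numbered pyloric pools of the ages deviated together with correlations of -0.046, -0.135 and 0.221 over 9559 genes, so the numbers were not taken to pair them.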
